A study of Mus musculus with 8 samples.

Results

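The genes described here are 45 genes of mitosis and chromosome segregation, read in RNA from the lateral ganglionic eminence (LGE), the embryonic zone that gives rise to striatal projection neurons. They were taken by symbol from a list of G2/M regulators, kinetochore, spindle and cytokinesis genes, chosen with earlier results of these data known. All 45 were found among the 16913 genes of the authors' deposited table. LGE was dissected at embryonic day 14.5 from mice of mixed C57BL/6J and CD1 stock. The 4 control samples came from littermates with the genotype Dlx5/6-Cre;Meis2F/+, so they carried Cre and 1 floxed Meis2 allele and were not wild type. The 4 Meis2-CKO samples were Dlx5/6-Cre;Meis2F/F, with both alleles of Meis2, a homeodomain transcription factor gene, floxed, and are called mutants where values are paired. The Cre driver is active in Dlx-expressing cells of the ventral forebrain, so other dissected cells keep their Meis2 alleles, and the labels do not say whether a sample was 1 embryo or several.

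Mitosis separates the copied chromosomes into 2 daughter cells. CDK1 bound to B-type cyclins starts it, kinetochores attach each chromosome to spindle microtubules, a checkpoint holds the anaphase-promoting complex (APC/C) until all are attached, and a contractile ring then divides the cell. In the embryonic LGE, dividing cells are radial glia at the ventricle and intermediate progenitors of the subventricular zone, while the neurons of the mantle have left the cell cycle. Transcripts of most of these genes build up in G2 and M phase and are low in neurons, so their level in whole tissue depends on how many cells are dividing.

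The values are the authors' mean expression signal per genotype with their log2 fold change, mutant over control, and their p-values. The header does not name the unit, no value per embryo is used, and no spread between embryos stands behind the means. Levels are therefore compared between genotypes and not between genes. A gene is said to pass where the deposited adjusted p, a Benjamini-Hochberg adjustment over all 16913 genes, is under 0.05. Meis2, the targeted gene, had authors' means of 204 in controls and 140 in mutants and fell by 0.53 in log2 terms (adjusted p = 0.00195 in the authors' deposited table). The LGE markers Dlx2 (137 and 171) and Gsx2 (20.9 and 24.2), given as authors' means for controls and mutants, were present in both genotypes. The summed signal of all genes was 547952 in controls and 543246 in mutants, and the depth is unknown.

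All 45 mitosis genes had a higher mean in Meis2-CKO, each by a small margin, and no single one passed the test. The median deposited log2 fold change of the 45 genes was 0.17, a 1.13-fold difference, and the individual values ran from 0.08 for Plk4 to 0.44 for Cenpf. Over all genes of the authors' deposited table the median was 0.01, and 53.3% lay above 0. Of all its genes 0.78% passed in either direction, 0.237% as higher and 0.544% as lower, against 0 of 45 here. All 45 are protein-coding, and of the 6964 protein-coding genes with a control mean between the lowest and highest of theirs 28 passed (0.402%), 2 of them as higher (0.0287%). At an unadjusted deposited p under 0.05 only Cenpf was counted, 1 of 45, where 2.17% of all genes were (0.828% of all genes as higher). The sources used here do not name the tool that made these p-values. In the authors' deposited table the unadjusted p-values of the 45 genes ran from 0.0208 for Cenpf to 0.661 for Plk4 with a median of 0.262, and over all genes the median was 0.760. After Cenpf the smallest were those of Ube2c (0.0674), Cdca8 (0.0730), Ccnb1 (0.0740), Kif11 (0.0772) and Bub1b (0.0820) in the authors' deposited table. A uniform direction across genes that share the same embryos and the same cells is not 45 separate observations, and a gene that did not pass is not shown to be unchanged.

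**Figure D1:**
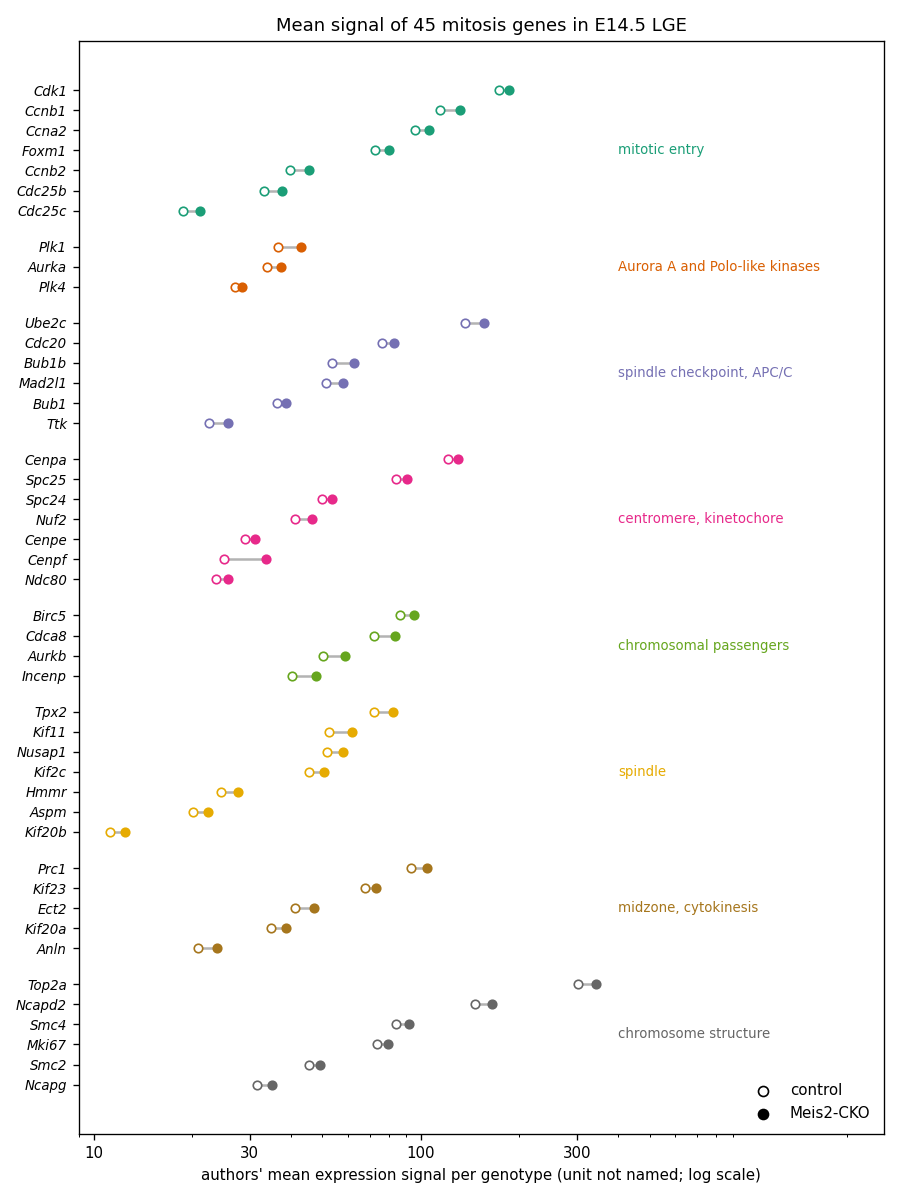
Authors' mean expression signal of each of the 45 genes (horizontal log axis, unit not named) in control (open circles) and Meis2-CKO (filled circles), grouped by role, with no error shown because the deposited means carry none. Every filled circle lies to the right of its open circle, and the widest gap is that of Cenpf, at 25 in controls and 33.6 in mutants.

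The differences were alike in size over a wide range of deposited means. Control means of the 45 genes ran from 11.2 to 302, and 42 of the 45 had a deposited log2 fold change between 0.1 and 0.25. The SD of the log2 fold change over the 45 genes was 0.06, which is a spread between genes and not between embryos. Across the 45 genes, which share the same libraries, the log2 fold change had a Spearman rho of -0.08 with the control mean and of -0.11 with exon length. Of the 7208 genes of the table whose control mean lay in the same range, 56.3% had a log2 fold change above 0, 22.4% reached the lowest of the 45, and 6.67% reached their median. Summed, the 45 genes made up 0.522% of all signal in control and 0.589% in Meis2-CKO, a sum that was 11.9% higher in Meis2-CKO. In RNA from whole tissue, a larger share of dividing cells and more of these RNAs per dividing cell cannot be told apart.

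Promoter sequence is shown here because the 45 genes all differed in one direction and because many G2/M genes are known to share the cell cycle homology region (CHR), bound by the MuvB complex, and the CCAAT box, bound by NF-Y. RefSeq promoter windows on GRCm38.p6 were found for 36 of the 45 genes, and the 250 bases before the start were searched on both strands for TTTGAA (CHR) and CCAAT. Both motifs were present in 11 of the 36 windows (30.6%), against 5.73% of 27025 windows of all genes. CCAAT was in 27 (75%), against 34.5% of all windows, and TTTGAA in 12 (33.3%), against 16.3%. The 5 genes below hold both and have the highest control means among those that do. Each window is written 5′ to 3′ on the strand of its gene in lower case, with capitals for TTTGAA or TTCAAA and for CCAAT or ATTGG, and a run of CCAATTGG in the Ube2c window is a CCAAT on each strand that overlap.
Top2a, chr11:99024190-99024439, minus strand: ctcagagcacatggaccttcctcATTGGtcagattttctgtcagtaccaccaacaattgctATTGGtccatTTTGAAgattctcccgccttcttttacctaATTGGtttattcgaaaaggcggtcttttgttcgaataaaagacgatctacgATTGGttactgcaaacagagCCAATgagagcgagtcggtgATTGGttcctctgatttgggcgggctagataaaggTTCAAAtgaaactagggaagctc
Cdk1, chr10:69352913-69353162, minus strand: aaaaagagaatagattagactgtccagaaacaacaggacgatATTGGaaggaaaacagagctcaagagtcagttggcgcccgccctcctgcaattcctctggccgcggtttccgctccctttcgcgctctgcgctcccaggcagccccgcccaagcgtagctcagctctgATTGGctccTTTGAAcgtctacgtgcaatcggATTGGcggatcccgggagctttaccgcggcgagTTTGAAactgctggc
Ncapd2, chr6:125191587-125191836, minus strand: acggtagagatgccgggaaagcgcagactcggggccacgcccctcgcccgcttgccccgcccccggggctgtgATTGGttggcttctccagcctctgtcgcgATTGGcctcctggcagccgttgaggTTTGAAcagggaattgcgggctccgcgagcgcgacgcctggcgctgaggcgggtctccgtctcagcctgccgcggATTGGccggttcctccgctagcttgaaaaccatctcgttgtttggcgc
Ube2c, chr2:164769679-164769928, plus strand: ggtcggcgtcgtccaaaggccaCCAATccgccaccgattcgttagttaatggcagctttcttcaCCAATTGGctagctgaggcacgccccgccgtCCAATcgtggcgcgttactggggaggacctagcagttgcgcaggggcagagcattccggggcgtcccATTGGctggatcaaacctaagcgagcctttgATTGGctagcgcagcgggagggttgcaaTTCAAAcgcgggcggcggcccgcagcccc
Cdc20, chr4:118437344-118437593, minus strand: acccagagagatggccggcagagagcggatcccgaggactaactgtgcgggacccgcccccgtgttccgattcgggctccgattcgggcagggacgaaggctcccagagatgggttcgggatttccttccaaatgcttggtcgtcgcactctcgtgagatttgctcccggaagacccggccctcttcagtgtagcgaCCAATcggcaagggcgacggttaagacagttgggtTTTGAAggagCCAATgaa
In the Cdc20 window the TTTGAA ends 13 bases before the start, in the Cdk1 window 1 of the 2 copies ends 10 bases before it, and in the Ube2c window the motif lies on the other strand, 29 to 24 bases before the start. The start is that of RefSeq. In GENCODE M21 the genes Cdk1, Ncapd2, Ube2c and Cdc20 begin inside these windows, and the Cdk1 and Ube2c motifs just placed lie within the annotated gene. A match to these letters is a description of the sequence and not a bound site. The 11 genes with both motifs had a median deposited log2 fold change of 0.18, and the 25 genes with a window and without both had 0.17, medians whose difference was not tested. Over the 11050 genes of the table with a window, the median was 0.04 for the 454 with both motifs and 0.01 for the others.

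The genes that start mitosis lay in the middle of the range. Cdk1, the kinase that drives entry into mitosis, had authors' means of 173 in controls and 186 in mutants (deposited log2 fold change 0.12). Its cyclin partners stood a little further apart, with Ccnb1 at 114 and 132 (log2 fold change 0.21), Ccnb2 at 39.7 and 45.5 (0.21) and Ccna2 at 96.0 and 106 (0.15). Thus the 3 cyclins each had a larger deposited difference than the kinase they activate, a comparison of means for which no error is available. Cdc25b (33.2 and 37.6, log2 fold change 0.19) and Cdc25c (18.8 and 21.2, 0.19) encode phosphatases that remove the inhibitory phosphates from CDK1. Foxm1, the forkhead factor that switches on many G2/M genes, stood at 72.6 and 80.1 (0.16). Among the 7 entry genes the deposited log2 fold changes ran from 0.12 to 0.21 with a median of 0.19, and none passed.

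Kinases of the centrosome and spindle included both a larger and the smallest difference of the whole set. Plk1, the Polo-like kinase needed from mitotic entry to cytokinesis, had authors' means of 36.5 in controls and 43.0 in mutants (deposited log2 fold change 0.25). Aurka, which encodes Aurora A and acts at the spindle poles, stood at 34.0 and 37.5 (0.15). Plk4, the kinase that starts centriole duplication, stood at 27 and 28.4 (0.08). Plk4 acts on centrioles around the G1 to S transition, ahead of the steps served by the other two kinases.

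The spindle checkpoint and its target had a median deposited log2 fold change of 0.19 over 6 genes, with none passing. Bub1b, which encodes the checkpoint protein BubR1, had authors' means of 53.4 in controls and 62.3 in mutants (0.24), while Bub1, its relative at the kinetochore, stood at 36.3 and 38.7 (0.10). Ttk, the MPS1 kinase that starts the checkpoint signal, stood at 22.6 and 25.8 (0.20), and Mad2l1, which encodes MAD2, the protein that holds CDC20 inactive, at 51.3 and 57.9 (0.19). The activator of the APC/C, Cdc20, stood at 76.0 and 82.6 (0.13), and Ube2c, the ubiquitin-conjugating enzyme that works with the APC/C, at 136 and 156 (0.21). Of the genes whose promoters are shown above, Ube2c therefore had the larger deposited difference and Cdk1 and Cdc20 the smaller ones, with Top2a and Ncapd2 between.

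Kinetochore genes held the largest single difference and otherwise some of the smallest. Cenpf, which encodes a large coiled-coil protein of the outer kinetochore, had authors' means of 25 in controls and 33.6 in mutants, a deposited log2 fold change of 0.44 or 1.35-fold. Its unadjusted p in the authors' deposited table was 0.0208 and its adjusted p 0.99999. The gene lies on chromosome 1, and its log2 fold change was higher than that of 95% of all genes. The other 6 genes of this group ran from 0.11 to 0.18. Cenpa, the centromeric histone H3 variant that marks where kinetochores form, stood at 121 and 130 (0.11), and Cenpe, a kinesin that carries chromosomes to the spindle equator, at 29.1 and 31.1 (0.11). The 4 subunits of the NDC80 complex, the main microtubule coupler, had differences close to each other, with Ndc80 at 23.6 and 25.8 (0.14), Nuf2 at 41.3 and 46.3 (0.18), Spc24 at 49.7 and 53.6 (0.12) and Spc25 at 83.8 and 90.6 (0.12). Their summed signal was 9.04% higher in Meis2-CKO.

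The chromosomal passenger complex had the highest group median, at 0.22 over 4 genes. This complex corrects wrong attachments and then moves to the midzone. Incenp, its scaffold, had authors' means of 40.3 in controls and 47.9 in mutants (deposited log2 fold change 0.26). Aurkb, its Aurora B kinase, stood at 50.3 and 58.5 (0.23), Cdca8, which encodes borealin, at 72.0 and 83.2 (0.22), and Birc5, which encodes survivin, at 86.4 and 95.4 (0.16). All but Birc5 were among the 7 largest differences of the 45 genes. None of the 4 passed, and whether the complex differs from the other groups was not tested.

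**Figure D2:**
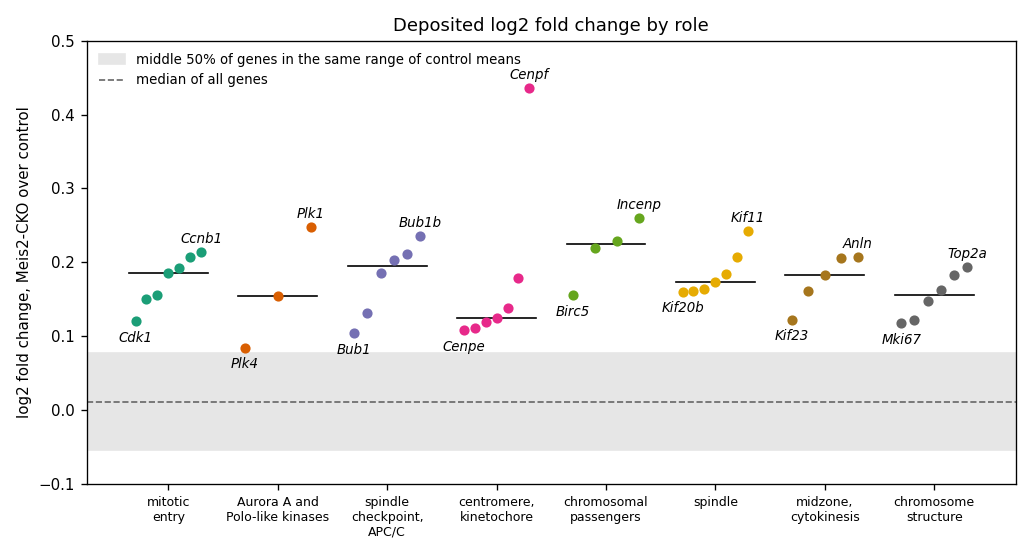
Deposited log2 fold change (Meis2-CKO over control, vertical axis) of the 45 genes by role, with 1 point per gene, a black line at each group's median and the names of the lowest and highest gene of each group. The grey band spans the middle quartiles of the 7208 genes with a control mean in the same range. All points lie above the median of all genes (dashed line, 0.01), and Cenpf at 0.44 stands apart from the others, the next being Incenp at 0.26.

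Spindle genes were uniform. The motor gene Kif11, whose product slides spindle poles apart, had authors' means of 52.5 in controls and 61.6 in mutants (deposited log2 fold change 0.24), and Tpx2, the activator of Aurora A on spindle microtubules, stood at 71.8 and 82.2 (0.21). Hmmr (24.6 and 27.7, 0.18) and Nusap1 (51.7 and 57.9, 0.17) encode microtubule-binding proteins of the spindle, and Kif2c, at 45.5 and 50.6 (0.16), a microtubule-depolymerising kinesin. Aspm, a spindle-pole gene whose loss causes microcephaly in people, stood at 20.1 and 22.3 (0.16), and the kinesin gene Kif20b at 11.2 and 12.5 (0.16). These 7 genes spanned 0.16 to 0.24, and none passed.

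Cytokinesis genes gave the same picture at the end of mitosis. Prc1, which bundles midzone microtubules, had authors' means of 93.0 in controls and 105 in mutants (deposited log2 fold change 0.18), and the kinesins Kif23 (67.7 and 73.1, 0.12) and Kif20a (34.8 and 38.6, 0.16) bind there. Ect2, the exchange factor that activates RhoA at the equator, stood at 41.2 and 47.2 (0.21), and Anln, the anillin scaffold of the contractile ring, at 20.8 and 23.8 (0.21). The 5 genes had a median of 0.18 and none passed.

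Genes of chromosome structure had a median deposited log2 fold change of 0.16. Top2a, the topoisomerase that disentangles sister chromatids, had authors' means of 302 in controls and 343 in mutants (deposited log2 fold change 0.19). Condensin genes followed, with Ncapd2 at 147 and 164 (0.18), Ncapg at 31.5 and 35 (0.16), Smc4 at 83.7 and 91.9 (0.15) and Smc2 at 45.5 and 49.2 (0.12). Mki67, whose product Ki-67 coats mitotic chromosomes and is the usual marker of dividing cells, stood at 73.7 and 79.3 (0.12). Mki67 thus lay below the median difference of the 45 genes, and 0 of these 6 genes passed.

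The wider pathway was read from 116 further mitosis genes, all of them listed and chosen with earlier results of these data known. None passed, 104 had a log2 fold change above 0 (89.7%, against 53.3% of all genes), and the median was 0.13. At an unadjusted deposited p under 0.05 there were 5 of the 116, all higher in Meis2-CKO. Over all genes the share was 2.17% in either direction and 0.828% as higher. Hjurp, the chaperone that loads CENP-A, had authors' means of 87.1 in controls and 110 in mutants (log2 fold change 0.34, p = 0.00227, adjusted p = 0.249 in the authors' deposited table). Knstrn, a kinetochore-associated spindle gene, stood at 75.8 and 95.2 (0.34, p = 0.00391, adjusted p = 0.370 in the authors' deposited table). The others were Cenpu (12.4 and 18.6, log2 fold change 0.59), Stag2 (44.8 and 54.7, 0.30) and Dlgap5 (31.2 and 39.4, 0.35), named after their values were seen. Stag2 is among the 4 genes of this list on chromosome X, and without those 4 the median was 0.13.

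Within the wider pathway the difference was not equal across complexes, which were separated after the values were seen and are given without a test. The 7 further kinesin genes had a median deposited log2 fold change of 0.18, with Kifc1 at 43.6 in controls and 51.9 in mutants (0.26) and Kif15 at 47.2 and 50.1 (0.10). The 17 genes of the inner centromere and of CENP-A loading had a median of 0.16, and the 4 further condensin genes of 0.14. At the low end stood the 12 core subunits of the APC/C, the ubiquitin ligase that Cdc20 activates, with a median of 0.02 and a summed signal of 842 in controls and 846 in mutants. Anapc5 stood at 265 and 263 and Cdc16 at 71.0 and 68.7, and 3 of the 12 lay below 0. The MuvB core genes Lin9, Lin37, Lin52 and Lin54 with Mybl2, regulators of CHR promoters, had a median of 0.06. Among them Mybl2 stood at 19.5 and 21.6 (0.16) and Lin9 at 13.3 and 12.8 (-0.04). Core subunits of the APC/C and MuvB are also known to be present in cells that do not divide, and whether that bears on these medians was not tested.

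**Figure D3:**
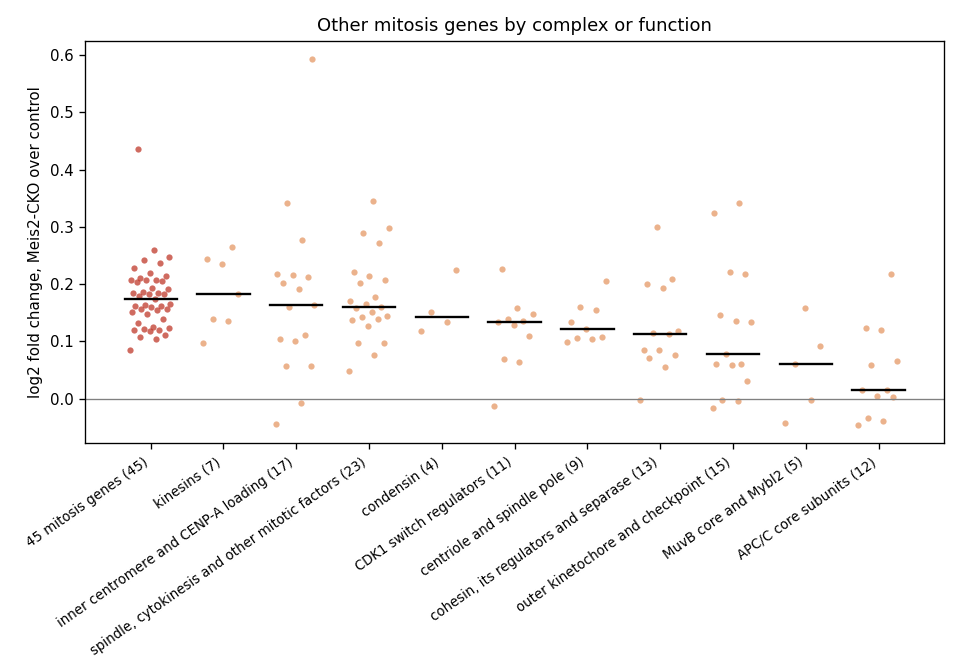
Deposited log2 fold change (vertical axis) of the 45 genes (left) and of 116 other mitosis genes divided by complex or function, with 1 point per gene, the number of genes in parentheses and a black line at each median. Medians run from 0.18 for the further kinesins to 0.02 for the APC/C core subunits.

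Gene Ontology terms carried by the table were read for genes outside the 45, and in the terms given here their medians lay below the 0.17 of the 45 and differed from term to term. The term cell division was attached to 35 of the 45 genes and to 2.02% of all genes. The 307 other genes with that term had a median log2 fold change of 0.05, 217 of them lay above 0 (70.7%), and 1 passed, as lower. For chromosome segregation, attached to 10 of the 45, the 70 other genes had a median of 0.09 and 54 lay above 0 (77.1%). Some other terms of the 45 lay near or below the 53.3% of all genes. For cytokinesis the 28 other genes had a median of 0.01 with 53.6% above 0, and for microtubule motor activity the 47 others had 0.00 with 51.1% above 0. For the mitotic spindle assembly checkpoint 5 of 11 other genes lay above 0 (45.5%). The terms were chosen after their values were seen.

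Other lists of the cell cycle and of cell types are given beside the mitosis genes, and their part in the result was not tested. These lists too were chosen with earlier results of these data known. All 42 genes of DNA replication and S phase lay above 0 in deposited log2 fold change, at a median of 0.19 and a range from 0.06 to 0.33, close to the 0.17 of the mitosis genes. The difference between these lists was not tested. Pcna, the replication clamp, had the smallest p of them (0.00336, adjusted p = 0.332 in the authors' deposited table). Tyms, which encodes thymidylate synthase, came next, at 73.2 in controls and 85.2 in mutants (0.23). CDK inhibitors and other genes of cell cycle exit were mixed, with 9 of 13 listed genes above 0 and a median of 0.10. Btg2, an antiproliferative gene of progenitors about to make neurons, stood at 34.0 in controls and 38.5 in mutants (0.19), and the growth-arrest gene Gadd45g at 76.2 and 82.8 (0.13). Cdkn1b, which encodes p27, stood at 58.8 in controls and 60.1 in mutants (0.04) and Cdkn1c, which encodes p57, at 25.9 and 24.6 (-0.06). No gene of these lists passed.

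Markers of radial glia and of the subventricular zone mostly had higher means too, and those of young neurons mostly lower ones. The 11 radial glia markers all had a log2 fold change above 0 (median 0.24), and their summed authors' means were 1711 in controls and 1936 in mutants, 13.2% higher. Nes, the intermediate filament of progenitors, stood at 104 and 126 (0.29) and the progenitor factor Sox2 at 121 and 142 (0.24). Of 9 subventricular markers 8 lay above 0 (median 0.19), with sums of 520 and 585. Btg2 and Gadd45g, given above among the genes of cell cycle exit, are counted in this list as well, so it is not a list of dividing cells alone. Of 13 young neuron markers 10 lay below 0 (median -0.14), with sums of 2048 and 1844. An unadjusted deposited p under 0.05 was found for 6 of the 13, all lower, against 227 of all 16913 genes as lower. Stmn4 stood at 120 and 91.9 (log2 fold change -0.37, adjusted p = 0.260 in the authors' deposited table) and Ina at 63.5 and 47.4 (-0.41). The 3 above 0 were the general neuronal genes Elavl4 (40.3 and 43.2, 0.11), Map2 (229 and 238, 0.07) and Dcx (168 and 174, 0.06). Elavl3 was almost level at 122 and 119 (-0.03), so the lower means were not shared by all young neuron markers. None of these markers passed and none was at 0 in either genotype. Thus higher means of mitosis and progenitor genes and lower means of several neuronal genes stood side by side in the same tissue.

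Other cell types in the dissected tissue were read by their own markers, which do not tell dividing from resting cells of a type. Endothelial markers, 8 in all, had summed authors' means of 54.0 in controls and 54.0 in mutants (4 above 0 in log2 fold change), with Pecam1 at 6.53 and 7.5 and Esam at 7.38 and 6.93. The sums were 55.6 and 55.8 for 8 microglial markers (median log2 fold change 0.01), with Cx3cr1 at 3.76 and 5.49 and Aif1 at 3.82 and 2.89. The 8 red blood cell markers summed to 3014 and 3036, and all 8 lay above 0 in log2 fold change (median 0.06). Hba-a2 stood at 15.2 in controls against 19.4 in mutants and Hbb-bt at 298 against 309. The values of these globin genes are uncertain because of near-identical copies. The 7 pericyte and meningeal markers summed to 21.7 and 21 (median log2 fold change -0.50), and 4 of them lay below 0. Among those 4, Col1a2 stood at 1.82 in controls against 0.802 in mutants and Dcn at 0.475 against 0.090. The 3 above 0 were Rgs5 (log2 fold change 0.10), Pdgfrb (0.09) and Cspg4 (0.15). The 6 pallial markers summed to 88.5 and 104 (median 0.28), with Neurog2 at 19.2 and 27.4 and Eomes at 13.2 and 18.2. Neurog1 stood at 1.15 and 1.61 (log2 fold change 0.45). Tbr1 differed less, at 35.6 and 37.9 (0.10), as did Emx1 (0.08) and Emx2, at 15.3 and 14.9 (-0.02). Thus 5 of the 6 pallial markers lay above 0, with a sum 17.8% higher in Meis2-CKO. None of them passed, and the unadjusted p of Neurog2 in the authors' deposited table was 0.0155. Pallial progenitors also divide, and the part of dissection in the mitotic signal was not tested.

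**Figure D4:**
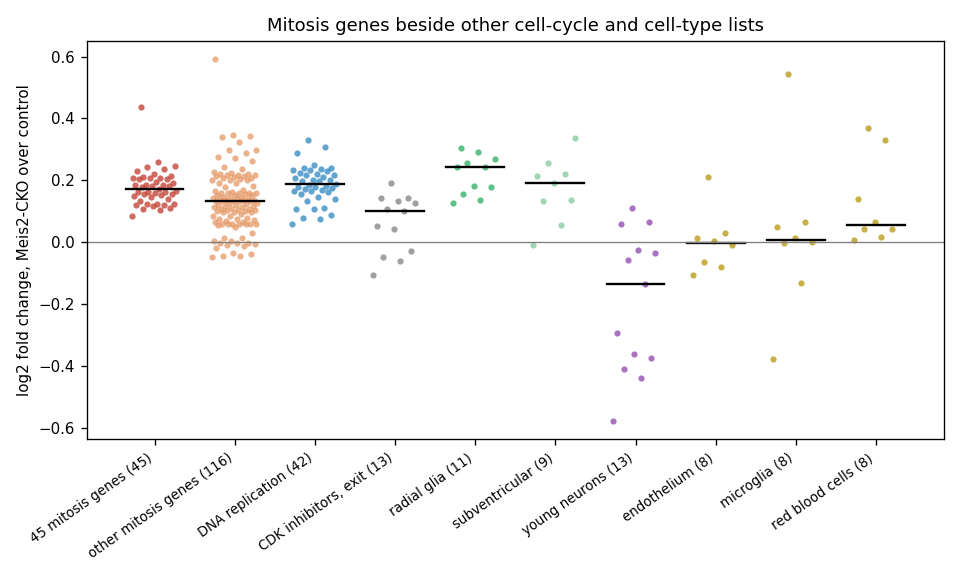
Deposited log2 fold change (vertical axis) of each gene in 10 lists, with the number of genes in parentheses and a black line at each median. The mitosis, replication and radial glia lists lie above 0, with medians of 0.17, 0.19 and 0.24, young neuron genes lie mostly below it at -0.14, and endothelial and microglial genes are centred near 0.

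None of the 45 genes lies on a sex chromosome, and some of them overlap or resemble another gene. In the authors' deposited table the X-linked Xist stood at 78.0 in controls and 256 in mutants, and the Y-linked Eif2s3y at 50.5 and 14. The Y-linked genes Ddx3y (14.1 and 4.03) and Kdm5d (13.05 and 4.09) were lower in mutants as well. The 45 genes lie on 14 chromosomes. By the Xist and Y-linked means the groups differed in the sex of their embryos as well as in genotype. Sex and genotype cannot be told apart in these means, also for genes on autosomes. Whether the sex of the embryos moves autosomal mitosis genes was not tested. Exons of 14 of the 45 genes overlap another annotated gene, as with Ccna2 and Exosc9 or Kif20a and Cdc23, and no source used here states whether counting used strand. The 31 genes without such an overlap had a median log2 fold change of 0.16. Because all 45 lay above 0, the direction in any part of them was fixed and is no check on overlap. A stretch of at least 200 nt with 95% identity to another annotated gene was found for 11 of the 45. Ccnb1 has several near-identical copies, of which Ccnb1-ps was listed, at 0.468 and 0.655, so its value carries that uncertainty, and the 34 genes without such a stretch had a median of 0.18.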

How the data were processed

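RNA was sequenced from 4 control and 4 Meis2-CKO samples. The submitters' processing notes list StringTie 1.3.1, HISAT2 2.1.0, FastQC 0.11.5 and the builds mm10 and GRCm38.p2, with no roles. The steps of counting, normalization and testing are not given in the sources used here. Per the file headers, the deposited signal is the authors' mean per genotype, in an unnamed unit. The authors also deposited each gene's log2 fold change, p-value and adjusted p-value, per the file headers. The deposited log2 fold change exceeded the log2 ratio of the means by 0.01 (median), as does scaling both columns to one sum. The adjusted p equals Benjamini-Hochberg over 16913 genes. The table's 8 columns of values per library have names that match no label and were not used, so no model was fitted, no sample was left out and no SD is given.

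The members and lists were chosen with earlier results of these data known. All members are named; of other lists, up to 3 genes that passed or, with none, the 2 with the smallest p (a marker so chosen is not reported here); other genes were named after their values were seen, as were the complexes of the wider pathway. Promoters were the up to 5 members with both motifs, off chromosome 18, with the highest control mean. Genes were placed with GENCODE M21 (GRCm38; 16861 matched by Ensembl ID). Overlaps came from its exons and copies from blastn 2.17.0 on its transcripts. Promoters are from RefSeq (GRCm38.p6), the first listed window per gene. Alternatives were a pseudocount of 1 or 0.1, centring, scaling to one sum, a mean of at least 1 or 5, protein-coding genes with 300 nt of exon or more, a fold change of 1.5, unadjusted p and Benjamini-Yekutieli adjustment. Adjustment and motif steps were tested on simulated data, and of the list step only the median was. Software was matplotlib 3.10.9, scipy 1.17.1, pandas 2.3.3 and numpy 2.4.6 under Python 3.11.15.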

Additional observations from a re-analysis of the deposited data

How the results depend on the processing

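The median log2 fold change of the 45 genes ran from 0.16 to 0.17 with a pseudocount of 1 or 0.1, centring on the median of all genes and scaling to one sum. All 45 lay above 0 each time, but none of these alternatives could have changed that. A pseudocount cannot reverse the order of a gene's means, and centring and scaling each moved values by about 0.01, less than the lowest value of 0.08. All 45 had a mean of at least 5. The count of members passing stayed at 0 with a mean of at least 1 and with protein-coding genes with 300 nt of exon or more. It was also 0 under Benjamini-Yekutieli adjustment and a fold change of at least 1.5, which are stricter and could give no other count. At an unadjusted p under 0.05 it was 1, for the other mitosis genes 5 and for all genes 367. Over all genes, 132 passed, and 39 did among protein-coding genes with 300 nt of exon or more. No paired analysis was possible because the library columns carry no name that matches a sample. Leaving out each sample was not run for the same reason. The means carry no spread, the depth is unknown and the values per library were not used, so variation between embryos enters only through the authors' deposited p-values.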

Other observations

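Groups of genes that prepare chromosomes and centrosomes for division were read as well, without a test and after their values were seen. The 13 genes of cohesin, its regulators and separase, which hold sister chromatids together and release them, had a median deposited log2 fold change of 0.11, and 12 lay above 0. Rad21, the cleaved cohesin subunit, had authors' means of 134 in controls and 144 in mutants (0.12), Smc3 of 55.2 and 58.1 (0.09) and the cohesin regulator Pds5b of 33.7 and 33.3, while Espl1, which encodes separase, stood at 15.5 and 17.8 (0.21). The 9 genes of the centriole and spindle pole all lay above 0, with a median of 0.12. Among them are genes whose loss causes microcephaly in people, with Wdr62 at 15.5 and 17.1 (0.15), Cdk5rap2 at 16.9 and 18.1 (0.11) and Cenpj at 11.8 and 12.5 (0.10) for controls and mutants in the authors' deposited table.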
